A study of Mus musculus with 8 samples.

Results

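The genes described here are the Toll-like receptors Tlr1 to Tlr7 and Tlr9, the lipopolysaccharide co-receptor Cd14 and the adaptor Myd88, measured in the hippocampus of young and very old mice. Members were chosen by name, as all non-control probes whose accession maps to 1 of these symbols, with earlier results of these data known. The 10 genes are read by 11 probes, of 19751 named genes and 39429 probes on the array, with 2 probes for Tlr7 and 1 for each of the others. Total RNA of hand-dissected full hippocampus from wild type C57BL/6J mice without treatment, aged in the home cage, was labelled with Cy3 and hybridised to 1-colour Agilent arrays. The groups were mice of 3 months (3M, 4 arrays) and of 29 months (29M, 4 arrays), which share strain, genotype and tissue and differ by label in age alone, and the question was which transcripts change at the end of the life span. The labels do not say whether the 4 arrays of a group come from separate animals, so p-values measure the spread between these samples, which may be technical.

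Toll-like receptors sense microbial molecules and products of damaged cells. Tlr1, Tlr2, Tlr4, Tlr5 and Tlr6 sit at the cell surface and bind lipoproteins, lipopolysaccharide or flagellin, while Tlr3, Tlr7 and Tlr9 sit in endosomes and bind nucleic acids. Ligand binding recruits Myd88, or Ticam1 for Tlr3 and in part Tlr4, and leads through kinases to NF-kB and interferon regulatory factors, which switch on cytokine and chemokine genes. In the brain microglia, the resident macrophages, are the main cells known to carry these receptors.

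For 7 of the 10 members RefSeq (GRCm38.p6) gave the bases before an annotated transcription start, and there was no entry for Tlr4, Tlr7 and Cd14. Shown are 250 bases before the start, 5′ to 3′ along the gene, for Tlr2, Tlr1 and Tlr6, receptors called without replicate 1 of 3M but not with all arrays, and for Myd88, whose difference was small. Tlr1 and Tlr6 have 2 annotated starts each, and the downstream start is used. Capitals mark a match on either strand to NF-kB (GGGA, 2 bases of any kind, then TTCC), the interferon response element ISRE (GAAA, 2 bases of any kind, then GAAA), STAT (TTCNNNGAA), PU.1 (GAGGAA) or AP-1 (TGANTCA).
Tlr2 (GRCm38.p6 chr3:83841609-83841858, minus strand): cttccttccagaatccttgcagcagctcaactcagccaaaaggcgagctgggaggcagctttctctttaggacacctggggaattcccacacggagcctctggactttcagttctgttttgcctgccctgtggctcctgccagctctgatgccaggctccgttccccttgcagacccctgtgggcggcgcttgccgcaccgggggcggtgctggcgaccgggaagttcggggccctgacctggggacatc
Tlr1 (GRCm38.p6 chr5:64932700-64932949, minus strand): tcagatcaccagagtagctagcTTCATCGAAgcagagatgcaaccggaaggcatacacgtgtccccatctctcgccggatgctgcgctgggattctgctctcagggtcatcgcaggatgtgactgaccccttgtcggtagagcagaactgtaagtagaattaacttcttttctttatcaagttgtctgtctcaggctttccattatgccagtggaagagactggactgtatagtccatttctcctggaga
Tlr6 (GRCm38.p6 chr5:64959167-64959416, minus strand): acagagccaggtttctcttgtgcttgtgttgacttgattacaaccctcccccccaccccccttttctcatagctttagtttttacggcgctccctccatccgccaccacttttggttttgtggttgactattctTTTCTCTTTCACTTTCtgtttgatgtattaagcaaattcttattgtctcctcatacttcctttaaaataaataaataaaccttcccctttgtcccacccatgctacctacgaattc
Myd88 (GRCm38.p6 chr9:119340019-119340268, minus strand): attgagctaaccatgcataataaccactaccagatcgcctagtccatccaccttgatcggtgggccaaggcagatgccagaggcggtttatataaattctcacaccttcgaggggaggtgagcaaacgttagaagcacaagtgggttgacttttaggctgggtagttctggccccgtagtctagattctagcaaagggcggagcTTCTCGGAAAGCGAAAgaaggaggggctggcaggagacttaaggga
The Tlr2 window held no full match to these patterns, but its run ggggaattccc misses the NF-kB pattern by a single base. Such near matches were not counted in any window. Tlr6 held 2 overlapping ISRE matches, which begin 116 and 110 bases before the start, and Myd88 held an ISRE match 40 to 31 bases before the start that overlaps a STAT match. Of 32817 RefSeq windows of the same length 2.97% hold an ISRE match and 7.01% a STAT match, 1.21% an NF-kB match, 23.3% a PU.1 match and 6.75% an AP-1 match. Tlr1 held a STAT match 228 to 220 bases before the start. Of the windows not printed, that of Tlr3 held an NF-kB match and that of Tlr9 a PU.1 and an AP-1 match, the upstream start of Tlr1 held a PU.1 match, and Tlr5 and the upstream start of Tlr6 held none. A match is a run of letters and no measured binding site.

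Values are variance-stabilised log2 intensities, and a change is the 29M mean minus the 3M mean. A probe was called when limma's Benjamini-Hochberg adjusted p over all probes was under 0.1 and the change was at least 0.5 on the log2 scale (1.414-fold). Of 43020 non-control spots per array between 76.2% and 85.0% were well above background, and arrays correlated with each other at r of 0.991 to 0.998 over probes. All member probes were well above background on all 8 arrays. The 6 hippocampal markers, which include Prox1 of the dentate gyrus, Wfs1 of CA1 and Zbtb20, were well above background on all 8 arrays as well, and none was called (median change 0.02; 0 higher and 1 lower at an unadjusted p under 0.05). The lower marker was Zbtb20, which changed by -0.33 (adjusted p 0.239 in limma), with all old arrays below all young arrays. Replicate 1 of 3M stood apart from its group in several of the members. Its scanner report placed 3 of 10 quality metrics out of range (the negative control signal, the variation of replicated control spots and the detection limit), against 0 on each other array. The arrays lay on 3 slides, each scanned as a unit, and slide 1 held this array with replicates 3 and 4 of 29M. Results are given with and without it, and whether the slide, the array quality, the animal or a mix-up of samples set its values was not tested.

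In the old hippocampus all 11 member probes had a higher mean than in the young, where 50.8% of all probes did, but only 1 probe passed the test. The called probe read Tlr7, the endosomal receptor for single-stranded RNA, at 1.49-fold. This is 1 of 11 probes and 1 of 10 genes, where 1.25% of all 39408 tested probes and 1.84% of all 19742 tested genes were called higher. No member was called lower, as 0.809% of all probes were. At an unadjusted p under 0.05 in limma 0 members were lower and 5 were higher (Cd14, Tlr2, Tlr4, Tlr6 and Tlr7). The share of all genes under that limit was not counted, so these 5 have no base rate beside them. The groups did not overlap for 2 probes, those of Tlr4 and Tlr7, which compares with 5.49% of all probes. The median change was 0.33 over the 11 probes and 0.003 over all tested probes. In tissue RNA of this kind, more cells of a type and more RNA per cell cannot be told apart.

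**Figure D1:**
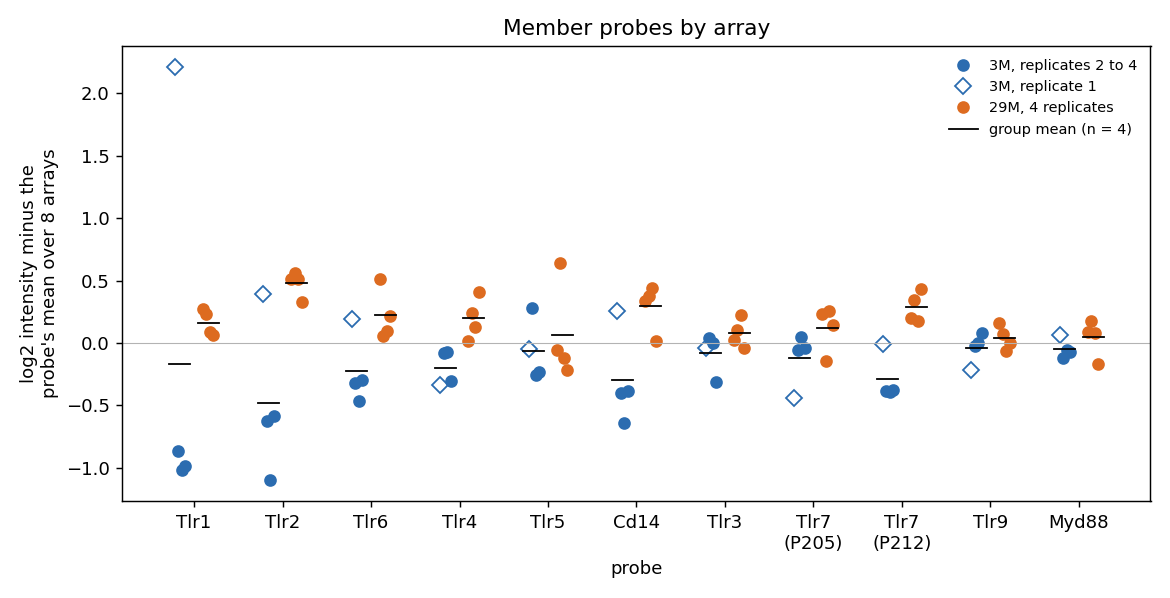
Log2 intensity of each of the 11 member probes on each array, minus the mean of that probe over the 8 arrays (y axis), with probes on the x axis; blue marks 3M, orange 29M, the open diamond replicate 1 of 3M, and black lines the group means (n = 4). P205 and P212 are the Tlr7 probes A_55_P2050932 and A_55_P2129047. Replicate 1 of 3M lies among or above the 29M arrays for Tlr1, Tlr2, Tlr6 and Cd14, while the other 3M arrays lie below every 29M array of these probes.

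Tlr2 forms heterodimers with Tlr1 or Tlr6 that bind bacterial lipopeptides, and these 3 receptors showed the same split among the 3M arrays. The Tlr2 probe A_51_P452629, printed 10 times on each array, read 10.17, 9.15, 8.67 and 9.19 in replicates 1 to 4 of 3M and 10.29, 10.34, 10.28 and 10.10 in 29M. The 29M arrays lay close together, and replicate 1 of 3M lay inside their range while the other 3 young arrays lay below it. The change was 0.96 (SE 0.26, 95% interval 0.37 to 1.55, 1.94-fold), with an adjusted p of 0.116 in limma, and was not called. Without replicate 1 of 3M it was 1.25 (SE 0.14, 2.38-fold, adjusted p 0.00322), and then it was called. With all arrays it was also called in limma when only probes well above background were tested (0.96, adjusted p 0.0931) and with array weights (1.12, adjusted p 0.00908). Array weights count arrays that depart from their group for less, so that fit is no separate support beside leaving out replicate 1 of 3M.

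The Tlr1 probe A_51_P495581 read 10.88, 7.80, 7.64 and 7.67 in 3M and 8.93, 8.89, 8.75 and 8.72 in 29M. Replicate 1 of 3M was the highest of all 8 arrays, and the other 3M arrays lay below all 29M arrays. In scanner units the single spot of this probe had a median intensity of 1898 in replicate 1 of 3M, 206 to 236 in the other 3M arrays and 409.5 to 522 in 29M, and it was not marked as an outlier spot. The change was 0.33 (SE 0.64, 95% interval -1.10 to 1.76, adjusted p 0.842 in limma), an interval that holds changes of either sign. Without that array the change was 1.12 (SE 0.09, 2.17-fold, adjusted p 0.00150), and with slide as a fixed block the sign turned (-0.015).

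The Tlr6 probe A_52_P117393 read 7.67, 7.16, 7.02 and 7.18 in 3M and 8.0, 7.54, 7.58 and 7.70 in 29M. Again replicate 1 of 3M fell among the old arrays, and the other 3 young arrays fell below them. The change was 0.45 (SE 0.16, 95% interval 0.10 to 0.80), with an adjusted p of 0.194 in limma, and without replicate 1 of 3M it was 0.58 (SE 0.12, 1.50-fold, adjusted p 0.0410).

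Tlr4 binds lipopolysaccharide with the help of Cd14, which hands the ligand over. The Tlr4 probe A_66_P124806 read 7.81, 8.07, 8.08 and 7.85 in 3M and 8.17, 8.39, 8.28 and 8.56 in 29M. Every old array was above every young array, and replicate 1 of 3M was the lowest of the young arrays. The change was 0.40 (SE 0.11, 1.32-fold), under the size limit and with an adjusted p of 0.124 in limma, and it was 0.35 (adjusted p 0.141) without replicate 1 of 3M.

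The Cd14 probe A_51_P172853 read 10.94, 10.29, 10.04 and 10.30 in 3M and 11.02, 11.07, 11.13 and 10.70 in 29M. All young arrays but replicate 1 lay below all old arrays, and that replicate lay inside the old range, as for Tlr2. The change was 0.59 (SE 0.18, 95% interval 0.18 to 1.0, 1.50-fold), with an adjusted p of 0.157 in limma. Without replicate 1 of 3M it was 0.77 (SE 0.12, 1.70-fold, adjusted p 0.0154), and it was then called.

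Tlr5, the receptor for flagellin, did not separate the ages. Its probe A_55_P2131428 read 6.64, 6.97, 6.44 and 6.45 in 3M and 6.63, 7.33, 6.57 and 6.48 in 29M, so that the groups overlapped almost throughout. The change was 0.13 (SE 0.20, 95% interval -0.31 to 0.57, adjusted p 0.787 in limma), and it turned to -0.065 without replicate 2 of 29M, the highest array.

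**Figure D2:**
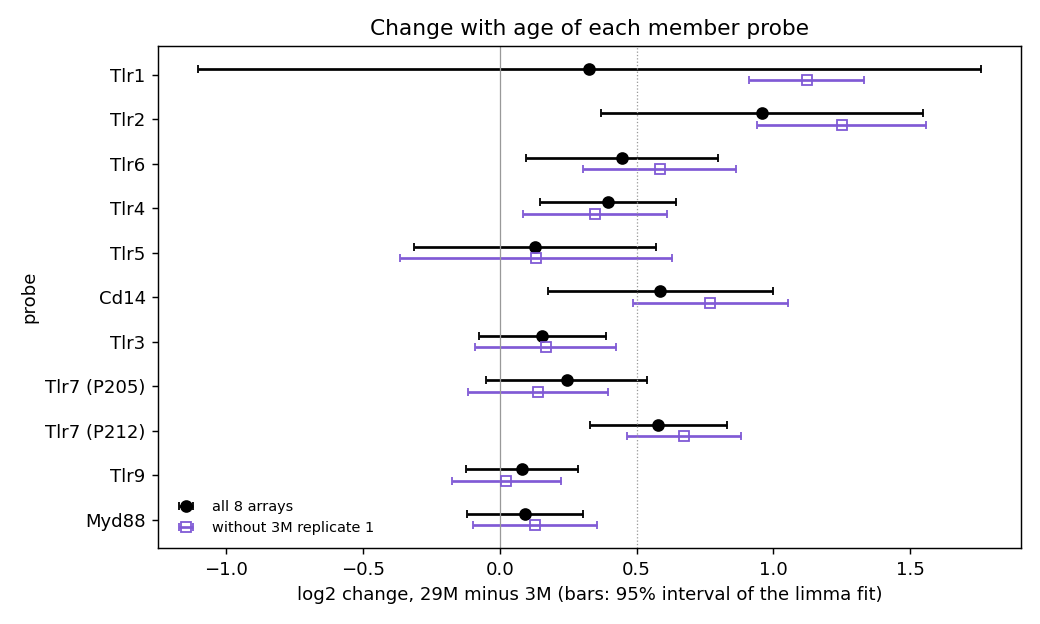
Log2 change with age, 29M minus 3M (x axis), for each member probe (y axis), with its 95% interval from the limma fit; black circles use all 8 arrays and open purple squares leave out replicate 1 of 3M. The dotted line is the size limit of 0.5. The Tlr1 interval runs from -1.10 to 1.76 with all arrays, and the intervals of Tlr3, Tlr5, Tlr9 and Myd88 and of the Tlr7 probe A_55_P2050932 hold 0 in both fits.

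Among the endosomal receptors Tlr7 gave the only call. Its probe A_55_P2129047 read 8.81, 8.44, 8.43 and 8.44 in 3M and 9.02, 9.17, 8.99 and 9.25 in 29M. All old arrays were above all young arrays, and replicate 1 of 3M was the highest of the young arrays. The change was 0.58 (SE 0.11, 95% interval 0.33 to 0.83), with an adjusted p of 0.0417 in limma. Over 18 other settings its size ran from 0.52 to 0.67 with adjusted p from 0.00583 to 0.142, and the call was lost in 7. It was lost without replicate 2 (adjusted p 0.135) or replicate 3 (0.106) of 3M and without replicate 1 (0.102), replicate 2 (0.124) or replicate 4 (0.105) of 29M. Without replicate 1 of 3M the change was 0.67 (1.59-fold, adjusted p 0.00781).

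A further probe of the same Tlr7 transcript, A_55_P2050932, read 10.27, 10.65, 10.76 and 10.67 in 3M and 10.94, 10.57, 10.97 and 10.86 in 29M. These groups overlapped, since replicate 2 of 29M lay inside the young range, and here replicate 1 of 3M was the lowest array. The change was 0.24 (SE 0.13, adjusted p 0.386 in limma), so the Tlr7 probes shared a direction but not a call.

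Tlr3 binds double-stranded RNA and signals through Ticam1, and Tlr9 binds unmethylated CpG DNA. The Tlr3 probe A_52_P85174 read 9.57, 9.65, 9.61 and 9.30 in 3M and 9.64, 9.72, 9.84 and 9.57 in 29M, a change of 0.16 (SE 0.10, 95% interval -0.07 to 0.39, adjusted p 0.484 in limma). The Tlr9 probe A_51_P432563 read 12.78, 12.96, 12.99 and 13.07 in 3M and 13.15, 13.06, 12.92 and 12.99 in 29M, a change of 0.08 (SE 0.09, 95% interval -0.12 to 0.29, adjusted p 0.700). For both receptors the ages overlapped, and neither interval reaches the size limit of 0.5.

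Myd88, the adaptor that all of these receptors except Tlr3 use, had overlapping groups. Its probe A_52_P282762, printed 10 times on each array, read 10.58, 10.39, 10.46 and 10.44 in 3M and 10.61, 10.69, 10.60 and 10.35 in 29M. The lowest array of all was replicate 4 of 29M. The change was 0.09 (SE 0.09, 95% interval -0.12 to 0.30, adjusted p 0.666 in limma), and it stayed between 0.05 and 0.17 over 18 other settings.

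The 3 slides did not give the same differences. On slide 1, where the young array is replicate 1, the difference between the ages was 0.03 for Tlr2, -2.14 for Tlr1, -0.03 for Tlr6 and -0.02 for Cd14. On slide 2 the same differences were 1.19, 1.10, 0.38 and 0.78, and on slide 3 they were 1.36, 1.27, 0.90 and 0.85. These 4 genes were thus higher in 29M on slides 2 and 3 and near or below 0 on slide 1. For the called Tlr7 probe the difference was 0.31, 0.73 and 0.59 on slides 1 to 3, and for Tlr4 it was 0.61, 0.32 and 0.20, so that these had 1 sign on all slides. The same held for Tlr3 (0.13, 0.06 and 0.18) and Tlr9 (0.18, 0.10 and 0.12), whose age groups overlapped. Myd88 gave -0.10, 0.30 and 0.15.

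**Figure D3:**
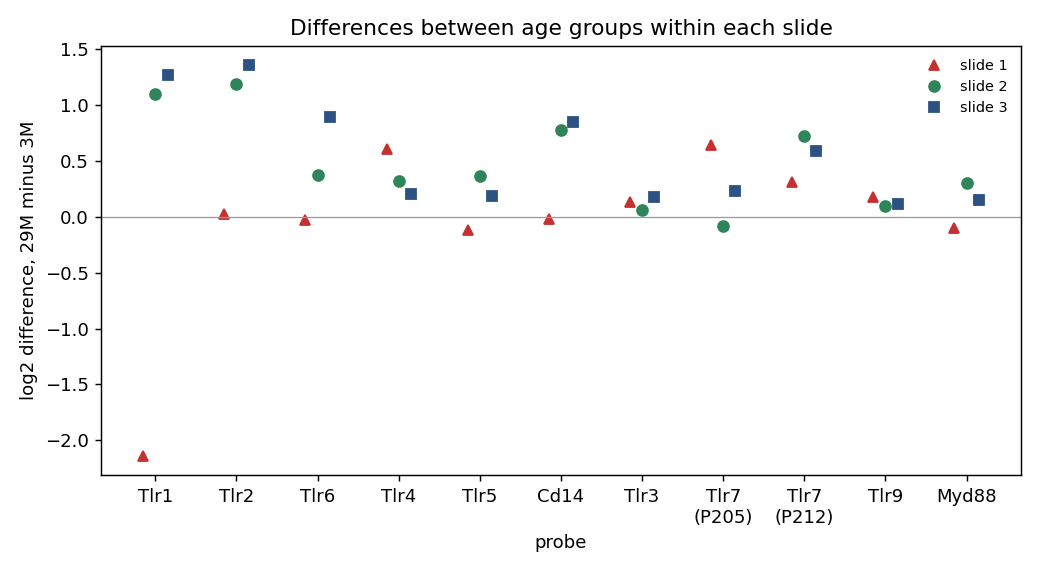
Mean log2 intensity of the 29M arrays minus that of the 3M arrays on the same slide (y axis) for each member probe (x axis); each point rests on 2 or 3 arrays. The slide 1 points of Tlr1, Tlr2, Tlr6 and Cd14 lie at or below 0.03, apart from those of slides 2 and 3. The points of Tlr3, Tlr4, Tlr9 and the Tlr7 probe A_55_P2129047 all lie above 0.

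Leaving out replicate 1 of 3M moved the count of called members from 1 to 5 of 10 genes (Cd14, Tlr1, Tlr2, Tlr6 and Tlr7), while the share of all genes called higher went from 1.84% to 3.01%. Set against the average of the remaining young arrays it was higher by 3.17 for Tlr1, 1.16 for Tlr2, 0.73 for Cd14 and 0.55 for Tlr6. Its difference from the 29M mean was -0.09 for Tlr2, -0.04 for Cd14 and -0.03 for Tlr6, and 2.05 for Tlr1. For Tlr4, in contrast, it lay -0.54 from the 29M mean. Without replicate 4 of 3M or replicate 3 of 29M, 1 member gene was called, and without any other single array 0 were.

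The rest of the pathway was read by 93 genes in 6 lists, chosen with earlier results of these data known. Of the 93 genes 11 were called higher, where 1.84% of all genes were, and 0 lower. At an unadjusted p under 0.05 in limma there were 28 and 0, a limit at which the share of all genes was not counted. The median change of the 93 genes was 0.11, against 0.01 for all genes with the brightest probe of each. Without replicate 1 of 3M 19 were called, where 3.01% of all genes were called higher, and without any other single array 5 to 7. The called genes lay in 5 of the 6 lists, and the list of adaptors and kinases, with 1 call, had a median change of -0.02.

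Among the other receptors and co-receptors 2 of 13 genes were called. Tlr13, an endosomal receptor for bacterial ribosomal RNA, rose by 0.51 (SE 0.13, adjusted p 0.0976 in limma), with all old arrays (11.24 to 11.58) above all young arrays (10.56 to 11.10). Il18r1, the receptor of interleukin 18, was not well above background on any 3M array and was on 3 of 4 29M arrays. Its group means were 5.49 and 6.08 (adjusted p 0.0569 in limma). Against an upper bound of 5.61 for the 3M mean, the 29M mean was 1.39-fold higher. That 29M mean includes the array not well above background, so the size of the change is uncertain. With all arrays the partners of the members did not pass: Ly96, which completes the Tlr4 complex, changed by 0.17 (adjusted p 0.467), Lbp, which brings lipopolysaccharide to Cd14, by 0.45 (0.466), and the Tlr4 relative Cd180 and its partner Ly86 by 0.31 (0.291) and 0.58 (0.126). Without replicate 1 of 3M Ly86 was called (0.71, adjusted p 0.0350). Cd180 was well above background on 1 of the 3M and 3 of the 29M arrays. Tlr8 and Tlr11 were not well above background on any array.

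Of 9 genes for trafficking and cleavage of the endosomal receptors 2 were called. Unc93b1, which escorts Tlr3, Tlr7 and Tlr9 to the endosome, rose by 0.67 (SE 0.16, adjusted p 0.0802 in limma). It read 12.82, 12.12, 12.16 and 12.09 in 3M and 13.06, 13.06, 12.96 and 12.82 in 29M, where replicate 1 of 3M overlapped the lowest old array and the other young arrays lay far below. Ctss, a cathepsin that cuts these receptors, rose by 0.83 (SE 0.12, adjusted p 0.0136), with young arrays at 14.18 to 14.59 and old arrays at 14.99 to 15.42.

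Downstream of the receptors the adaptors and kinases gave 1 call of 24, a probe of Mapk8 (JNK1) with a change of 1.0 (SE 0.15, adjusted p 0.0158), while its brightest probe changed by -0.12 (adjusted p 0.540) and another by 0.16, so the 3 probes disagree. Of the adaptors Tirap changed by 0.17 (adjusted p 0.474), Ticam1 by 0.08 (0.704) and Ticam2, well above background on 2 arrays of each group, by -0.27 (0.630). The kinases that bind Myd88 did not pass either, with Irak1 between -0.10 and 0.12 over 3 probes and Irak4 at -0.16 and -0.06, and the ligase Traf6 changed by 0.11 (0.774). Of the 13 transcription factors Irf7, which carries Tlr7 and Tlr9 signals to interferon genes, rose by 0.66 (SE 0.14, adjusted p 0.0575) and Irf8 by 0.60 (SE 0.13, 0.0637), with separate groups for both. Of 15 inhibitors of the pathway 0 were called, with 3 at an unadjusted p under 0.05 in limma, and 2 were called without replicate 1 of 3M (Irak3 and Cd200r1).

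The products that this pathway induces held the 3 largest changes of all the lists shown, in 4 called genes of 19 with a probe. Ccl2, a chemokine that draws monocytes, rose by 1.83 (SE 0.15, 3.56-fold, adjusted p 0.00194 in limma), from 7.0 to 7.63 in 3M to 8.97 to 9.33 in 29M. Ccl4 rose by 1.47 (SE 0.25, adjusted p 0.0257), with replicate 1 of 3M at 8.31, the other young arrays at 7.11 to 7.22 and the old arrays at 8.75 to 9.19. Cxcl10, an interferon-induced chemokine, rose by 1.12 (SE 0.22, adjusted p 0.0448) and Il1a, an alarm cytokine, by 0.98 (SE 0.16, adjusted p 0.0242; well above background on 3 of 4 3M arrays). All 4 had separate groups, and without replicate 1 of 3M 7 genes of this list were called.

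**Figure D4:**
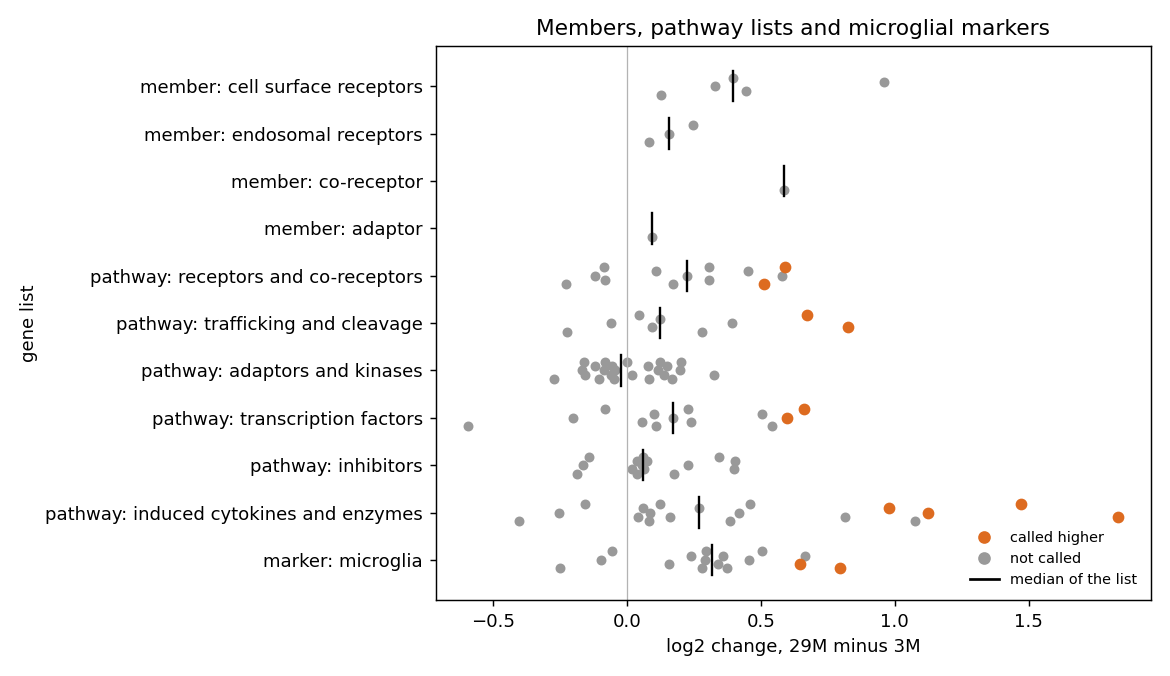
Log2 change with age, 29M minus 3M (x axis), of the brightest probe of each gene in the member lists, the pathway lists and the microglial markers (y axis); orange points were called higher, grey points were not called, and black lines are list medians. Tlr7 is drawn by its brighter probe A_55_P2050932, which was not called, and Mapk8 by its brightest probe, also not called. The induced cytokines reach 1.83, and adaptors and kinases lie around -0.02.

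How often these calls held differed by gene. Over 19 other settings Ccl2, Ccl4, Ctss, Il1a and Mapk8 were called in all 19, Cxcl10 in 15, Irf7 in 10, Irf8 in 8, Unc93b1 in 7, and Tlr13 and Il18r1 in 6. Tlr13, Unc93b1, Irf8 and Il18r1 lost the call each time an array other than replicate 1 of 3M was left out. Irf7 lost it without each of the other 3M arrays and without replicate 1 or 2 of 29M, and Cxcl10 without replicate 2 or 4 of 29M. Highest adjusted p over the settings were 0.229 for Tlr13, 0.211 for Unc93b1, 0.180 for Irf8, 0.162 for Il18r1, 0.159 for Irf7 and 0.140 for Cxcl10.

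Most microglial markers had a higher mean in the old arrays, as these genes did. Of 16 markers 13 did so and 2 were called, Trem2 (0.65, adjusted p 0.0493 in limma) and Tyrobp (0.80, 0.0298). The defining markers P2ry12 (0.36, 0.250), Tmem119 (0.37, 0.183) and Cx3cr1 (0.50, 0.158) were not called. All 16 were well above background on all 8 arrays, and the median change of the list was 0.32, against 0.29 for the members by the brightest probe of each gene, with 0.25, 0.37 and 0.37 on slides 1 to 3. The summed normalised intensity of the list was 362963 to 417262 in 3M and 420242 to 451081 in 29M. Replicate 1 of 3M, whose Tlr2, Tlr6 and Cd14 lay in the range of 29M, had the lowest microglial sum of all arrays. Its mean log2 intensity over the same markers (13.12) was, however, the highest of the young arrays (12.88 to 13.01 in the others) and above that of replicate 4 of 29M (13.10; 13.36 to 13.39 in the other old arrays), so that the sum and the mean place this array differently. The sum rests mostly on the 2 brightest probes, those of Siglech (16.90 in this array) and Itgam (16.71). Other probes of these genes read far lower in it, at 11.79 for Siglech and 7.91 and 8.13 for Itgam. Without replicate 1 of 3M the median change of the list was 0.31. Among the members the median went from 0.40 to 0.58 for the cell surface receptors and from 0.16 to 0.14 for the endosomal receptors, and the change of Myd88 from 0.09 to 0.13. The part of microglia in the members' changes was not tested.

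Other cells that carry these receptors were measured too. Border macrophage markers had a median change of 0.24 with 0 of 8 called (2 at an unadjusted p under 0.05 in limma), Mrc1 at 0.10, Lyve1 at 0.48 and Cd163 not well above background on any array. Their summed intensity was 6358 to 9552 in 3M, the highest of these in replicate 1, and 7638 to 11562 in 29M. Without replicate 1 of 3M 2 of these markers were called higher, and 0 of the monocyte and neutrophil markers. For Ms4a7 that array read 10.65, against 8.83 to 9.12 in the other young arrays and 9.60 to 10.42 in 29M. For Lyve1 it read 7.34, below all old arrays (7.48 to 7.65). Markers of monocytes and neutrophils had a median change of 0.43 with 0 of 8 called (2 at an unadjusted p under 0.05), S100a8 at 0.88 (adjusted p 0.202), S100a9 at 0.55 (0.428) and Ccr2 at 0.25 (0.493), and sums of 2423 to 4812 in 3M and 3300 to 5708 in 29M. Of 8 B and T cell markers Cd3d (0.96, adjusted p 0.0103 in limma) and Cd8a (0.71, 0.00731) were called, while Cd3e changed by 0.07 and Cd79a by 0.17. A dimmer Cd8a probe, well above background on 2 of the 3M and 0 of the 29M arrays, changed by -0.17 (adjusted p 0.737). Sums were 20689 to 22794 in 3M and 19508 to 24568 in 29M. They rest mostly on 1 Cd4 probe, at 14.05 to 14.42, while another Cd4 probe, printed 10 times, read 6.79 to 6.99. Neuronal markers had a median change of 0.01. The part of these cells in the members' changes was not tested.

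The genes whose pattern over the 8 arrays was most like that of the called Tlr7 probe were Npl (Pearson r 0.994), Tmtc1 (0.983) and Ahctf1 (0.982), among 15911 genes read by a probe well above background on all arrays. For Tlr2, chosen for this after its values were seen, they were H2-K1 (0.991), Il10ra (0.990) and H2-K2 (0.989), where H2-K1 and H2-K2 are near-identical and their probes may read each other. The points are the same 8 arrays in 2 age groups and share slides, so these values only describe likeness.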

How the data were processed

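Hippocampal RNA of 8 samples was read on 1-colour Agilent arrays; the RNA is labelled polyA in the sample records, while the extraction text describes total RNA. The deposited files hold the authors' scanner output per array, with spot and local background intensity before normalisation, made per the file headers with Feature Extraction 10.7.3.1, a version that differs from that in the study's methods. The 8 columns of the series table equal local background means of arrays (within 0.001), 7 of them of another sample, and were not used.

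From the deposited median spot intensity, a variance-stabilising model (own code, asinh with 1 offset and 1 scale per array, trimmed at the 0.9 quantile) was fitted as in the methods, outlier spots were left out and spots of a probe averaged, giving normalised log2 intensity (log2 of the deposited scale). Background-subtracted processed signals served as an alternative. Probes measured on at least 3 arrays per group (2 when 1 array was left out) were tested with limma 3.58.1 in R 4.3.3 (lmFit, eBayes, Benjamini-Hochberg over all probes). Accessions were matched to RefSeq symbols of GRCm38.p6, which named 26055 of 39429 probes (66.1%). Gene lists and members were chosen with earlier results of these data known. Named genes were all members, called genes of the pathway lists, direct partners of the members, and the leading markers of each cell type shown, of which 1 is not reported here. On simulated data with 200 changed probes of 39098 the procedure called 95% with the right sign, and 6.86% of its calls were false. The planted log2 changes were 1 to 2 in size, on probes above the median intensity and with independent noise. With all arrays every member change was smaller, so the 95% gives no rate of detection for the members. The number of arrays limits the precision.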

Additional observations from a re-analysis of the deposited data

Results flagged for a closer look

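In each group of 4 arrays, values of the members, of their neighbours and of the lists were examined for an array far from the other 3, by the share of the range of the group that its gap to the nearest array took up. Of 102 groups 9 had such an array, against about 5.1 by chance (1 in 20), and in 5 of these the array was the first replicate of 3M. It read 10.88 for Tlr1 against 7.64 to 7.80 in the other 3M arrays (gap 0.953 of the range) and 8.81 for the Tlr7 probe A_55_P2129047 against 8.43 to 8.44 (0.974). It also read 8.31 for Ccl4 against 7.11 to 7.22 (0.910) and 12.82 for Unc93b1 against 12.09 to 12.16 (0.896), and its mean over the induced cytokines was 8.06 against 7.48 to 7.56 (0.863). The Tlr1 value was above all 29M arrays as well, and that of the other 4 lay below the 29M group mean.

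Replicate 2 of 3M read 6.99 for Ticam2 against 5.72 to 5.83 (gap 0.915). Replicate 2 of 29M was the lowest for the Irak1 probe A_55_P2153862, at 11.70 against 11.95 to 11.98 (0.905). Replicate 4 of 29M was the lowest for Cd180, at 5.79 against 6.10 to 6.15 (0.864), and its mean over the microglial markers was 13.10 against 13.36 to 13.39 in the other 29M arrays (0.913).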

How the results depend on the processing

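All member changes kept their direction under 18 other settings, except Tlr1 with slide as a fixed block (-0.015) and Tlr5 without replicate 2 of 29M (-0.065, in a range up to 0.24 when 1 array was left out). The count of called member probes, equal to that of member genes, was 0 with processed signals scaled to the 75th percentile, 2 among probes well above background, 4 with array weights and 0 to 5 when 1 array was left out. The pathway count was 7 with the 75th percentile, 6 with slide as a fixed block, 18 with array weights, 6 at an adjusted p under 0.05 and 5 to 19 when 1 array was left out. Over all probes, array weights gave 842 higher and 662 lower, the threshold of 0.05 gave 308 and 179, and leaving out 1 array gave 266 to 824 higher and 135 to 640 lower, where all arrays gave 491 and 319; the share of higher among called probes, 60.6%, ran from 51.6% without replicate 3 of 29M to 71.2% without replicate 4 of 29M. Replicate numbers are shared between the ages, and deviations of same-numbered arrays correlated at -0.24, 0.21, -0.23 and 0.07. These 4 values cannot settle whether the numbers mark pairs, and replicate 2 of both ages lay on slide 2. With the replicate block 0 member probes and 0 member genes, 5 pathway genes, 266 higher and 145 lower probes were called. All member probes were well above background on every array, and 4 arrays a group set the precision.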
